A study of Mus musculus with 11 samples.

Results

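The immunoglobulin heavy chain variable (Ighv) segments were examined across 11 mouse pancreatic tumors, 6 grown in hosts in which protein kinase N2 (PKN2) had been deleted (KO tumors A to F) and 5 grown in wild-type hosts (WT tumors A to E). Members were the genes of the raw count table whose GENCODE M21 symbol begins with Ighv and whose annotated type is IG_V_gene, which gave 113 of 54232 genes. Levels are given as CPM, which are counts relative to each library total after TMM scaling. Summed over these 113 segments, CPM was higher in every KO tumor (30.1 to 615) than in any WT tumor (5.504 to 28.8). As an unscaled share of all counts the groups overlapped, with KO tumor F at 0.00311% and WT tumor E at 0.00314%. With a limit of 3 counts, more segments were detected in each KO tumor (51 to 83) than in any WT tumor (8 to 43). The groups overlapped with a limit of 10 counts and also at equal Ighv counts. The share held by the single most abundant segment overlapped between the groups, and 9 different segments led across the 11 tumors.

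A B cell builds its antibody heavy chain by joining one variable segment to a diversity and a joining segment, and the joined exon is spliced to a constant region gene such as Ighm. The choice of variable segment is made once in the development of a B cell and is inherited by its descendants, so an expanded clone of antibody-secreting cells raises reads from a single segment whereas a mixed population spreads reads over many. Segments are grouped by sequence likeness into numbered families, of which Ighv1 is the largest in C57BL/6 mice. Plasma cells, the antibody-secreting end stage, hold far more heavy chain RNA per cell than resting B cells.

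All hosts were female, age-matched adult mice on a C57BL/6 background, and all were heterozygous for RosaCreERT2, a tamoxifen-activated Cre recombinase expressed from the broadly active Rosa26 locus. WT hosts carried the unmodified Pkn2 gene and KO hosts were Pkn2 fl/fl. Both groups received tamoxifen and then 1000 TB32048 cells, a line from a female KPC mouse with pancreatic ductal adenocarcinoma, placed in the pancreas in DMEM and Matrigel. The injected carcinoma cells were wild type for Pkn2 in both groups, and deletion in the host was not restricted to a single cell type, so B lineage cells of KO hosts could carry it too. Each library came from the tumor of a different animal. In bulk tumor RNA, fewer cells of a type and less RNA per cell cannot be told apart.

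Total counts ranged from 16294128 (WT tumor B) to 31121422 (WT tumor E). Pkn2 itself was at 80.1 to 108 CPM in KO tumors and 62.9 to 138 CPM in WT tumors, so its bulk level did not separate the groups and the genotype rests on the labels. WT tumor B stood apart by its share of ribosomal RNA, 6.39% of counts against 0.241% to 1.40% in the other 10 tumors. WT tumor E held the most Ighv counts and the highest summed level of 10 B cell marker genes of its group, 59.5 CPM against 16.2 to 25.3 CPM in the other 4 WT tumors, next to 63.0 to 153 CPM in KO tumors. Where leaving out either tumor changed the call of a segment named below, its adjusted p without that tumor is given.

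The 113 members lie on the minus strand of chromosome 12 of GRCm38, between positions 113578504 and 116000461. Each spans 294 to 480 bases of exon, and 2 overlap another annotated gene (Ighv1-5 with Mir7094-2, Ighv1-62-1 with Gm19331). The reference stretches of the segments on which the results turn are printed first, because their likeness to one another bears on how reads can be assigned. Each is the last 294 coding bases of the annotated transcript, all within its last exon, and capitals mark bases that differ from the named closest relative in an alignment. Bases of the relative that are missing from a printed stretch leave no mark. Ighv1-11 held the most counts in KO tumors and is shown against Ighv1-76, with 50 differences, of which 45 fall on a printed base.
Ighv1-11 (GRCm38 chr12:114612243-114612536, minus strand): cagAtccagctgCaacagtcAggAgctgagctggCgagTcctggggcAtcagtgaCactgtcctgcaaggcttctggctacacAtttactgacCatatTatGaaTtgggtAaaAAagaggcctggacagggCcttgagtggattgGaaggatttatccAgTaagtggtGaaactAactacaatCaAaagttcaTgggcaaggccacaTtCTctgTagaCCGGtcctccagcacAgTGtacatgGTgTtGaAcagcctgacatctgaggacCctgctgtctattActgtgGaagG
Ighv11-2 was the next most abundant in KO tumors. It is shown with its neighbor Ighv11-1, chosen after the values were seen, from which it differs at 4 of these bases.
Ighv11-2 (GRCm38 chr12:114048241-114048534, minus strand): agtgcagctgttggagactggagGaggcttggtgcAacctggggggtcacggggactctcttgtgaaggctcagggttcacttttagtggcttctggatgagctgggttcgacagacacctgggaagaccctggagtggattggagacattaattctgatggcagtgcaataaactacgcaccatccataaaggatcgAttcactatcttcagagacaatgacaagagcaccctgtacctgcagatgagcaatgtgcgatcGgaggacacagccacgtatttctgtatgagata
Ighv11-1 (GRCm38 chr12:113981879-113982172, minus strand): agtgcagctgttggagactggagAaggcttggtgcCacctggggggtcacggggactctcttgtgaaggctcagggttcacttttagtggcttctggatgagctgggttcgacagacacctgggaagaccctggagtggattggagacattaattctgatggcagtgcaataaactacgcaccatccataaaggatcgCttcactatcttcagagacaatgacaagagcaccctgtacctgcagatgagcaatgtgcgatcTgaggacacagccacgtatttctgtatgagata
Ighv9-3 held the most counts in WT tumors and is marked against Ighv9-2, with 15 differences, of which 13 fall on a printed base.
Ighv9-3 (GRCm38 chr12:114140692-114140985, minus strand): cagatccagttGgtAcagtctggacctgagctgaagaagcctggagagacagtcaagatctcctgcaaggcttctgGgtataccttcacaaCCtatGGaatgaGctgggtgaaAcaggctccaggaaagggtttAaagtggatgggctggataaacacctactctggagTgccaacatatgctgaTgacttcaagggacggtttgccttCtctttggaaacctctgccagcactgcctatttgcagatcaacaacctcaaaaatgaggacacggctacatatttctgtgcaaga
Ighv1-72 and Ighv1-50 had the smallest p values. Ighv1-50 is marked against Ighv1-69, with 8 differences. Ighv1-72 is shown with its closest relative Ighv1-62-3, added after the values were seen, and the pair differ at 2 of these bases.
Ighv1-72 (GRCm38 chr12:115757984-115758277, minus strand): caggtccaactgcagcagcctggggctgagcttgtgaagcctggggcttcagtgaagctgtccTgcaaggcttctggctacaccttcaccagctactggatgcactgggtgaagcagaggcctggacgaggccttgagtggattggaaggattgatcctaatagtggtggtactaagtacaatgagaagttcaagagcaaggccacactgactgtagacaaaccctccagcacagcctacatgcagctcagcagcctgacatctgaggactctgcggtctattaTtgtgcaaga
Ighv1-62-3 (GRCm38 chr12:115460999-115461292, minus strand): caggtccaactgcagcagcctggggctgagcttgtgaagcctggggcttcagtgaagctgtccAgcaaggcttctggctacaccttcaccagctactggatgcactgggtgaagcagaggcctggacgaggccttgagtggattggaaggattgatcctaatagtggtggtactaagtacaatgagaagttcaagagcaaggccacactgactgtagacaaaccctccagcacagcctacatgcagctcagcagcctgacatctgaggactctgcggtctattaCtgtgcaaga
Ighv1-50 (GRCm38 chr12:115119748-115120041, minus strand): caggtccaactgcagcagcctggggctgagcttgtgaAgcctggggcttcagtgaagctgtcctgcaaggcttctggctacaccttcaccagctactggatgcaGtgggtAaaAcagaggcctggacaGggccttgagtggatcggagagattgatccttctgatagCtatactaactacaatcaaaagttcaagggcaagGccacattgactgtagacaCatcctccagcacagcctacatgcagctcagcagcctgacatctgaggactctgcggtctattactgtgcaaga

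Likeness of this degree is common in the cluster. Over whole annotated transcripts, the median identity of a member to its closest Ighv relative was 95.4%, the lowest was 73.8%, and 26 members were at least 97% identical to another Ighv gene. Those 26 had a median total of 34.5 counts over the 11 tumors and 4 of them had none, against a median of 107 counts and 11 with none among the other 87. Within the printed pairs the counts were lopsided: 4785 for Ighv11-2 against 3 for Ighv11-1, and 168 for Ighv1-72 against 1 for Ighv1-62-3. Ighv1-62-2 and Ighv1-71, identical over the compared stretch, had 59 and 24 counts. Reads of such segments could be split or dropped in the counting, and rearranged segments in antibody-secreting cells can also carry mutations, so a count for a single segment is less certain than the sum.

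The summed Ighv level was examined first. KO tumors A to F held 9264, 3336, 5699, 15128, 1296 and 748 Ighv counts in that order. WT tumors A to E held 277, 74, 112, 261 and 976. As CPM with TMM-scaled library totals, KO tumors ranged from 30.1 (F) through a median of 158 to 615 (D). WT tumors were at 12.02, 6.17, 5.504, 10.2 and 28.8 CPM. The group means were 223 ± 220 CPM (SD, n = 6) and 12.6 ± 9.51 CPM (SD, n = 5), a ratio of 17.8. On the log2 scale the means were 7.12 ± 1.63 and 3.38 ± 0.951, a difference of 3.75. The groups did not overlap in CPM, but KO tumor F and WT tumor E were neighbors. As a share of all counts they were 0.00311% (95% Wilson interval 0.00290 to 0.00334) and 0.00314% (0.00295 to 0.00334), which cannot be told apart. The 3 KO tumors with the highest sums (D, A and C) lay well above this pair, and intervals of this kind cover counting error only. Without WT tumor E the log2 difference was 4.12, and without WT tumor B it was 3.56. No test was applied to a sum over members, since members were chosen with earlier results of these data known.

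The rise did not rest on the leading segments. With the most abundant segment of each tumor removed, the log2 difference in the remaining sum was 3.82, and with the 5 most abundant removed it was 3.94. Leaving out the members with at least 97% identity to another Ighv gene gave 3.62.

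**Figure D1:**
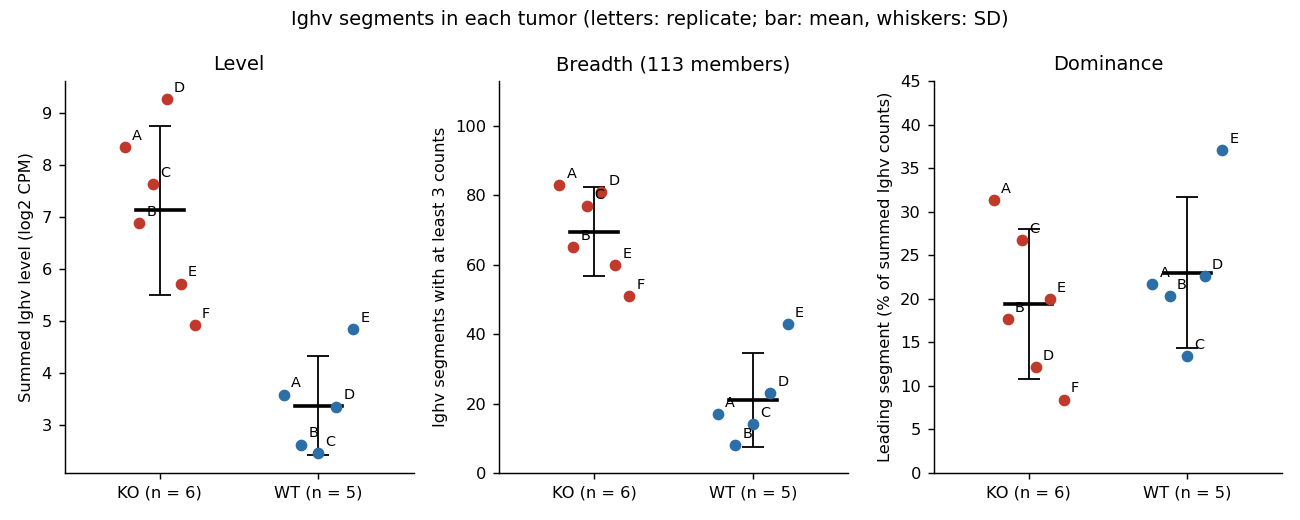
Summed Ighv level (log2 CPM, left), number of Ighv segments with at least 3 counts (middle) and share of the leading segment in percent (right) for each KO and WT tumor, with letters for replicates, bars for group means and whiskers for SD. Level and breadth are higher in every KO tumor than in any WT tumor, with KO tumor F and WT tumor E closest, whereas the leading share overlaps between groups.

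Breadth was counted as the number of segments with at least 3 counts. It was 83, 65, 77, 81, 60 and 51 in KO tumors A to F and 17, 8, 14, 23 and 43 in WT tumors A to E. The means were 69.5 ± 12.8 (SD, n = 6) and 21 ± 13.4 (SD, n = 5). With a limit of 10 counts the ranges were 21 to 67 in KO and 1 to 22 in WT tumors. They overlapped there through KO tumor F (21) and WT tumor E (22). Without WT tumor E the WT range was 8 to 23, and without WT tumor B it was 14 to 43. Of the 113 members, 37 reached 3 counts in all 6 KO tumors and 0 did so in all 5 WT tumors. Across groups, 90 reached it in at least 1 KO tumor, 58 in at least 1 WT tumor and 23 in none. At least 1 count was present for 98 members, of which 23 were seen only in KO tumors and 0 only in WT tumors. Some of these 23, such as Ighv1-23 and Ighv8-6, had 1 count in all. WT tumors held 74 to 976 Ighv counts, against 748 to 15128 in KO tumors. Whether the 23 were absent from WT tumors beyond sampling was not tested, and the share over all genes was not computed. The other 15 members had no count in any tumor, and 3 counts in a tumor correspond to 0.0887 to 0.250 CPM, depending on its depth.

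Library depth and the number of Ighv counts bear on breadth in different ways. With every library drawn down to the smallest total, 40 to 76 segments remained detected in KO tumors and 8 to 34 in WT tumors. With every tumor drawn down instead to 74 Ighv counts, the number held by WT tumor B, the expected number of segments with at least 1 count was 25.3 to 33.1 in KO tumors and 21 to 26.5 in WT tumors. At equal Ighv counts the groups overlapped and their means, 28.4 ± 3.05 (SD, n = 6) and 24.0 ± 2.43 (SD, n = 5), differed by 4.40 segments, against 41.7 at the full counts with the same limit of 1 count (80.3 and 38.6).

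Dominance of single segments varied as much within groups as between them. In KO tumor A, Ighv1-11 took 31.3% of Ighv counts (95% Wilson interval 30.4 to 32.3). Ighv1-75 took 26.7% (25.6 to 27.9) in KO tumor C, Ighv11-2 took 19.98% (17.9 to 22.2) in KO tumor E and 17.7% (16.4 to 19.0) in KO tumor B. Ighv1-11 led again in KO tumor D at 12.1% (11.6 to 12.6). KO tumor F was the most even, with Ighv1-82 at 8.42% (6.64 to 10.6).

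Each WT tumor had a different leader. In WT tumor E, Ighv9-3 took 37.1% (34.1 to 40.2), the highest share in any tumor, with 362 counts. Ighv1-26 took 22.6% (17.9 to 28.1) in WT tumor D and Ighv1-76 took 21.7% (17.2 to 26.9) in WT tumor A. The leaders of WT tumors B and C, Ighv8-8 at 20.3% (12.7 to 30.8) and Ighv2-9 at 13.4% (8.29 to 20.9), each rested on 15 counts. Mean leading shares were 19.4 ± 8.64% in KO (SD, n = 6) and 23.0 ± 8.66% in WT tumors (SD, n = 5). The difference of -3.63 percentage points (KO minus WT) was -0.11 without WT tumor E. Divided by exon length, the leader stayed the same in 10 of 11 tumors, and in KO tumor E it was Ighv1-11.

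The effective number of segments, the inverse Simpson index, is the number of equally abundant segments that would give the same chance of drawing a matching pair. It was 7.75, 17.6, 7.56, 17.2, 11.4 and 25.6 in KO tumors A to F and 9.18, 11.3, 14.5, 10.9 and 6.58 in WT tumors A to E. The ranges overlapped, and the means of 14.5 ± 6.99 (SD, n = 6) and 10.48 ± 2.89 (SD, n = 5) differed by less than the SD in KO tumors. The exponential of the Shannon entropy, which gives rare segments more weight, was 18.7 to 37.8 in KO tumors and 15.2 to 19.6 in WT tumors. On that measure 5 of 6 KO tumors were above every WT tumor, with means of 26.9 ± 7.15 (SD, n = 6) and 17.7 ± 2.14 (SD, n = 5), and it was not computed at equal Ighv counts. The 5 leading segments together took 35.6% to 59.7% in KO and 50.9% to 63.5% in WT tumors.

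**Figure D2:**
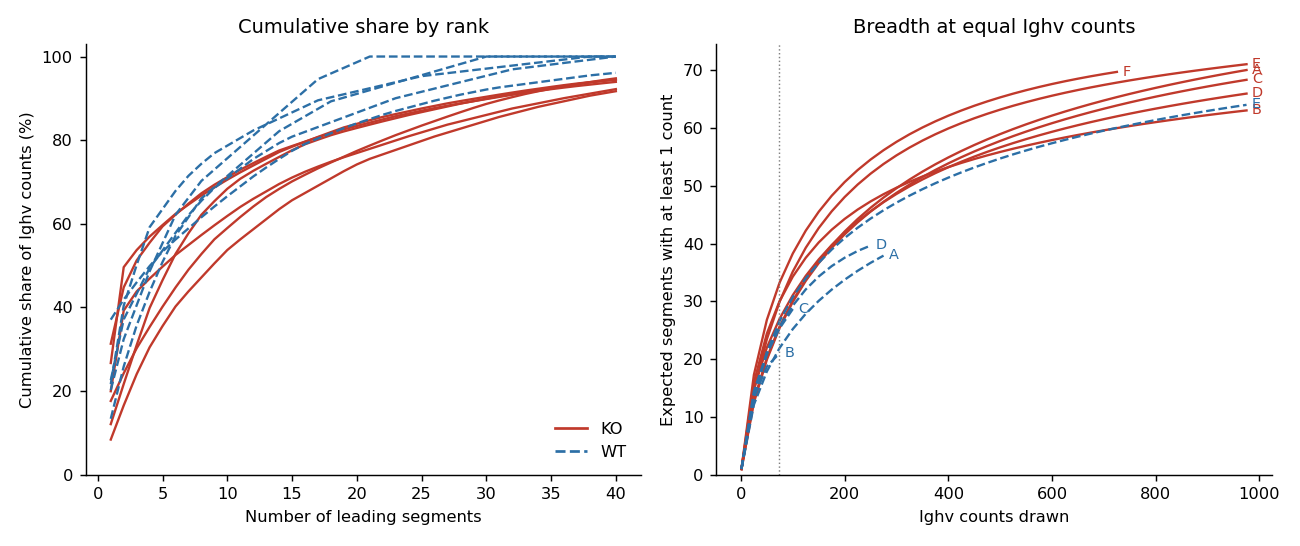
Left, cumulative share of Ighv counts (percent) against the number of leading segments, 1 line per tumor, solid red for KO and dashed blue for WT; right, expected number of segments with at least 1 count against Ighv counts drawn, with replicate letters and a dotted line at 74 counts. The cumulative curves of the groups intermingle over the first 5 ranks, and at 74 counts the tumors lie between 21 and 33.1 segments.

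The segments were next tested one by one. edgeR's quasi-likelihood test ran on all genes that passed its filter on low counts, 16536 in number, of which 29 were Ighv members. Because KO tumors carried most Ighv counts, a member passed this filter mainly through the KO group, so directions among the 29 are a description only. At an edgeR adjusted p under 0.05, 0 of 29 were called higher, against 0.0181% of all genes tested, and 0 were lower. At an unadjusted p under 0.05, 27 were higher, against 8.57% of all genes, and 0 were lower. Adjusted p ranged from 0.0627 to 0.584, and 17 of the 29 were under 0.1. DESeq2 called 22 of the 29 higher, against 3.42% of all genes, and 0 lower. Fitted log2 fold changes (KO over WT) ran from 1.02 for Ighv1-76 to 12.6 for Ighv1-11 with a median of 3.26, against -0.03 for all genes tested. Ighv1-11 was at 0 in all WT tumors, and its bound (log2 10.26) still left it the highest of the 29. Setting it at that bound therefore could not move the median.

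Single libraries decided the edgeR calls. Without WT tumor E, 22 of 39 members tested were called higher, against 3.63% of all genes. Without WT tumor D it was 13 of 39, against 1.21%, and without KO tumor F it was 4 of 29, against 0.183%. Leaving out any of the other 8 tumors, WT tumor B included, gave 0. With no filter on low counts, 98 members were tested and 6 were called higher, against 0.131% of 29689 genes, namely Ighv12-3, Ighv6-3, Ighv1-53, Ighv1-50, Ighv1-72 and Ighv11-2. In that fit 73 of the 98 were higher at an unadjusted p under 0.05, against 6.82% of all genes, and 0 were lower.

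Separation of the levels gave a view that needs no fitted model, although it rests on CPM with TMM-scaled totals. In CPM, 14 of the 98 members with a count were higher in every KO tumor than in any WT tumor, against 1.02% of all genes with a count. These were Ighv2-3, Ighv5-12, Ighv12-3, Ighv6-3, Ighv1-4, Ighv10-3, Ighv1-7, Ighv1-11, Ighv1-15, Ighv1-52, Ighv1-53, Ighv1-61, Ighv1-72 and Ighv1-74. Several are separated by few counts or by the scaling. Ighv1-15 had 3 counts in both KO tumor F and WT tumor D. Ighv1-74 had 5 counts in KO tumor F and 6 in WT tumor E, and Ighv6-3 had 8 in KO tumor F and 7 in WT tumor A. Ighv5-12 and Ighv1-61 each had 1 count in their lowest KO tumor. Without WT tumor E there were 25, against 2.70% of all genes, and without WT tumor B there were 17, against 1.28%. Of the 98, mean CPM was higher in KO tumors for 95 and in WT tumors for 3 (Ighv2-9, Ighv3-5 and Ighv5-2). KO tumors held most Ighv counts and the share over all genes was not computed, so this is not a result apart from the sum.

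Ighv1-11, gene ENSMUSG00000102888 at positions 114612243 to 114612675, was the most abundant member per length (mean of 49.8 CPM per kilobase over all tumors). KO tumors A to F held 2903, 51, 111, 1832, 250 and 4 counts. WT tumors A to E each held 0, and 3 counts over the WT group correspond to 0.0261 CPM. The segment was thus present in every KO tumor and in no WT tumor and ranged from 0.161 to 102 CPM among KO tumors. Its KO mean of 32.0 ± 44.4 CPM (SD, n = 6) was at least 1225-fold higher than that limit, and its edgeR adjusted p was 0.0847, or 0.0385 without WT tumor E.

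Ighv11-2, gene ENSMUSG00000096108 at positions 114048241 to 114048812, encodes the VH11 segment known from B-1a cells whose antibodies bind phosphatidylcholine. Counts were 1248, 589, 1306, 1342, 259 and 1 in KO tumors A to F and 27, 6, 0, 2 and 5 in WT tumors A to E. It was high in 5 of 6 KO tumors, while KO tumor F lay among the WT tumors. Means were 29.2 ± 21.9 CPM (SD, n = 6) and 0.380 ± 0.482 CPM (SD, n = 5). The log2 fold change was 6.30 ± 1.26 (SE) with an edgeR adjusted p of 0.0735, which became 0.00993 without KO tumor F, 0.0442 without WT tumor D and 0.0308 without WT tumor E.

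Ighv12-3, the VH12 segment known from the same kind of antibody, is named here after its values were seen. It fell under the filter on low counts of the main fit. It had 74, 6, 38, 56, 5 and 2 counts in KO tumors A to F, and 0, 0, 0, 0 and 1 in WT tumors A to E. KO tumors A, C and D were highest for both Ighv11-2 and Ighv12-3, and they also held the highest summed Ighv levels. Ighv12-3 made up at most 0.799% of Ighv counts in any KO tumor. Whether the 2 segments rose together beyond the sum was not tested.

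Ighv1-72, at positions 115757984 to 115758461, had the smallest p value of the members. It held 34, 35, 35, 17, 13 and 18 counts in KO tumors and 5, 3, 1, 3 and 4 in WT tumors, with no overlap in CPM and, of the named segments, the smallest SD relative to the mean in KO tumors. Means were 0.930 ± 0.316 CPM (SD, n = 6) and 0.150 ± 0.0818 CPM (SD, n = 5), and the log2 fold change was 2.66 ± 0.447 (SE) with an edgeR adjusted p of 0.0627. That p became 0.0436 without KO tumor F, 0.0442 without WT tumor D and 0.0279 without WT tumor E. It was a low, even signal in every tumor, unlike the segments that led.

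The next smallest p values belonged to Ighv1-50, Ighv6-3, Ighv1-53 and the already described Ighv11-2. Ighv1-50 held 21, 28, 13, 61, 36 and 2 counts in KO tumors and 0, 0, 2, 1 and 1 in WT tumors, with KO tumor F inside the WT range. Ighv6-3 held 72, 76, 72, 70, 23 and 8 counts in KO tumors. In WT tumors Ighv6-3 held 7 counts in A, 1 in E and 0 in the others, and KO tumors A to D were alike. Ighv1-53 held 169, 26, 152, 362, 14 and 25 counts in KO tumors and 0, 2, 0, 6 and 1 in WT tumors. Their log2 fold changes were 4.70 ± 0.905, 4.72 ± 0.911 and 5.79 ± 1.14 (SE), with edgeR adjusted p values of 0.0663, 0.0663 and 0.0688. Without WT tumor E these became 0.0299, 0.0299 and 0.0305, and without WT tumor D each became 0.0442. Without KO tumor F they fell under 0.05 for Ighv1-50 (0.0234) and Ighv6-3 (0.0395).

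Several abundant segments owed their KO level to a single tumor. Ighv7-4 had 1008 counts in KO tumor D, 0 to 7 in the other KO tumors and 0 in every WT tumor. Ighv1-12 had 947 counts in KO tumor D and 0 to 64 in the others, with 2 counts in all WT tumors together. Ighv8-8 had 1408 and Ighv10-3 had 1451 counts in KO tumor D, next to at most 184 and 189 in any other KO tumor. Ighv1-39 had 668 counts there and at most 142 in any other KO tumor. Ighv1-75 was the counterpart in KO tumor C, with 1523 counts there, 246 in KO tumor D and 3 to 6 in the remaining KO tumors. These tumor-specific peaks made the group SD of such segments as large as or larger than the mean, for example 11.7 ± 23.3 CPM (SD, n = 6) for Ighv10-3. Of these segments Ighv10-3 had an edgeR adjusted p of 0.0786, or 0.0357 without WT tumor E (log2 fold change 7.75).

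Other abundant segments were shared more widely. Ighv14-3 held 361, 32, 92, 490, 8 and 38 counts in KO tumors and 4, 0, 5, 0 and 16 in WT tumors, with a log2 fold change of 5.00 ± 1.17 (SE) and an edgeR adjusted p of 0.0816, or 0.0318 without WT tumor E (log2 fold change 5.81) and 0.0490 without WT tumor D. Ighv1-82, leader of KO tumor F, held 229, 153, 45, 114, 4 and 63 counts in KO tumors and 4, 0, 11, 3 and 38 in WT tumors. For Ighv1-82 the log2 fold change was 3.14 ± 0.906 (SE), with an edgeR adjusted p of 0.0975, or 0.0338 without WT tumor E (log2 fold change 4.06).

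Of the segments tested, Ighv1-76 and Ighv9-3, which led in WT tumors A and E, had the smallest fold changes. Ighv9-3 held 5, 2, 2, 2 and 362 counts in WT tumors A to E and 137, 65, 105, 450, 20 and 19 in KO tumors. Its log2 fold change was 1.14 ± 1.22 (SE) with an edgeR adjusted p of 0.584, and 5.16 with an edgeR adjusted p of 0.0279 once WT tumor E was left out. Ighv1-76 held 60 counts in WT tumor A, 0 to 4 in the other WT tumors and 4 to 88 in KO tumors, with an edgeR adjusted p of 0.549. Its log2 fold change of 1.02 was 3.63 without WT tumor A, with an edgeR adjusted p of 0.131. Ighv1-26, leader of WT tumor D with 59 counts, held 24 to 260 in KO tumors and had a log2 fold change of 2.61 ± 0.890 (SE) at an edgeR adjusted p of 0.119, or 3.87 and 0.0442 without WT tumor D. Ighv2-9, leader of WT tumor C, held 15 counts both there and in KO tumor A, and 0 to 4 elsewhere.

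**Figure D3:**
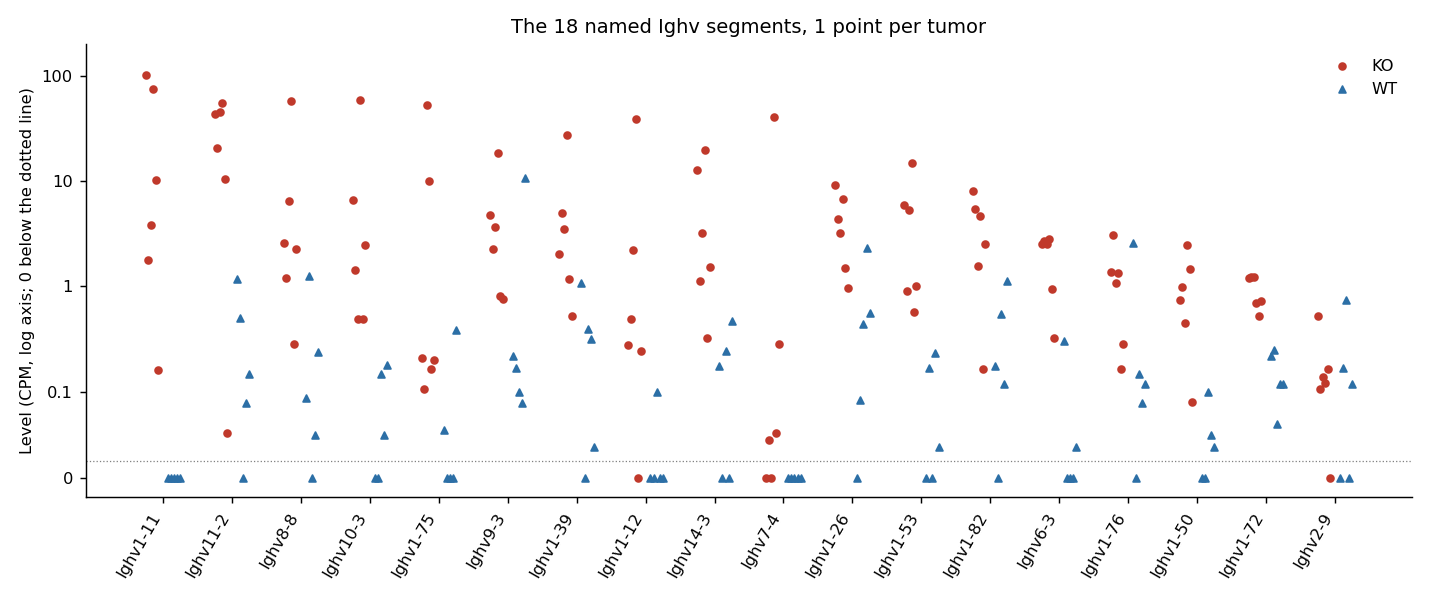
Level in CPM (log axis, with values of 0 drawn below the dotted line) of the 18 named Ighv segments, 1 point per tumor, red circles for KO and blue triangles for WT, ordered by mean CPM per kilobase. Ighv1-11 is at 0 in all 5 WT tumors, single KO tumors stand above the rest for Ighv7-4, Ighv8-8, Ighv10-3, Ighv1-12 and Ighv1-75, and WT tumor E stands above the other WT tumors for Ighv9-3.

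By family, Ighv1 was the largest, with 53 of the 113 members and 51.7% of all Ighv counts. Its share was 44.8% to 60.6% in KO and 25.7% to 71.8% in WT tumors, so the groups overlapped in share although the Ighv1 sum, 13.5 to 290 CPM in KO and 1.59 to 8.64 CPM in WT tumors, did not. Ighv11, with 2 members, took 12.9% of all counts, the second largest part, almost all through Ighv11-2. Ighv10 (6.11%), Ighv8 (5.38%), Ighv14 (5.31%) and Ighv9 (4.68%) followed. The summed CPM did not overlap between groups for Ighv1, Ighv5, Ighv7, Ighv10 and Ighv12, and overlapped for the other 11 families. Ighv16, with 1 member, had no count.

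Counts were not gathered in 1 stretch of the cluster. The 38 members nearest the constant genes held 27.5% to 39.3% of Ighv counts in KO tumors, the 38 in the middle 23.0% to 50.1% and the 37 farthest 19.0% to 41.4%. In WT tumors the corresponding ranges were 19.1% to 58.7%, 14.9% to 42.9% and 19.2% to 53.8%, and they overlapped those of KO tumors for all 3 stretches.

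**Figure D4:**
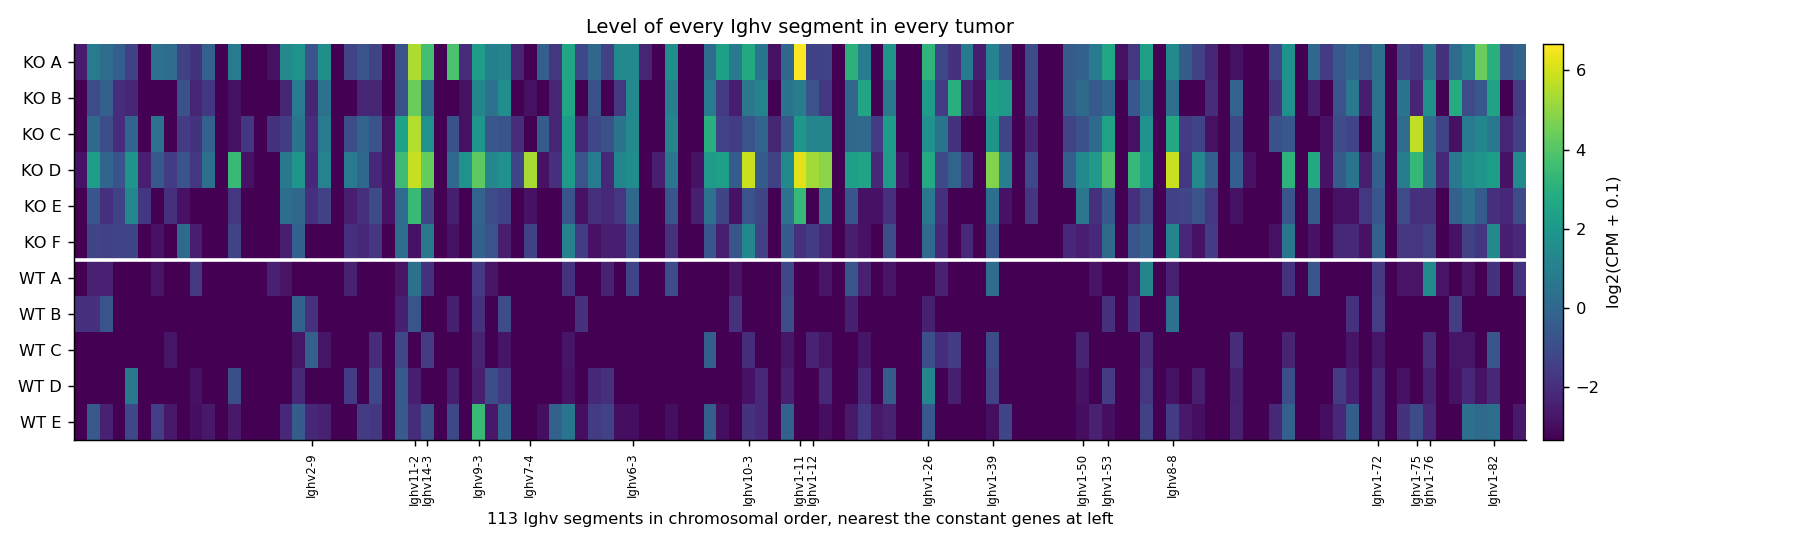
Level of all 113 Ighv segments (columns, in chromosomal order with the segments nearest the constant genes at left, named segments labeled) in each tumor (rows), as log2(CPM + 0.1). KO rows are filled along the whole cluster, with bright columns that differ between tumors, and WT rows are mostly at 0 with isolated segments such as Ighv9-3 in WT tumor E.

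The likeness of segment use between tumors was measured with the Morisita-Horn index, which is 0 for no shared segments and 1 for identical shares. KO tumors had a median index of 0.464 over their 15 pairs (0.162 to 0.854), highest for A and E, in which Ighv1-11 and Ighv11-2 were both abundant. WT tumors had a median of 0.135 over 10 pairs (0.105 to 0.367). Pairs of 1 KO and 1 WT tumor had a median of 0.222 over 30 pairs (0.09996 to 0.463). The pairs share tumors and the WT values rest on only 74 to 976 counts, so they are given as a description.

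The heavy chain constant genes, to which the joined segments are spliced, were examined beside the variable segments. None of the 7 tested was called at an edgeR adjusted p under 0.05 (adjusted p 0.0663 to 0.605), 6 were higher at an unadjusted p under 0.05, and DESeq2 called 5 higher. Ighm, the constant region of IgM, was at 552 ± 472 CPM in KO (SD, n = 6) and 56.9 ± 29.2 CPM in WT tumors (SD, n = 5), a log2 fold change of 3.28 ± 0.606 (SE). Ighg3, of the IgG3 class, had a log2 fold change of 7.48 ± 1.72 (SE) and was carried by KO tumors A and D with 18215 and 8839 counts, the same tumors in which Ighv1-11 led. Igha, the constant region of IgA, had a log2 fold change of 0.90 ± 1.01 (SE) and an adjusted p of 0.605.

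The variable counts were then set against the constant counts of the same tumor. Per 100 counts of the 8 constant genes there were 15.2, 15.9, 12.3, 17.3, 15.6 and 12.8 Ighv counts in KO tumors A to F. The values in WT tumors A, B, D and E were 8.43, 7.01, 10.52 and 18.2, so A, B and D were below every KO tumor and E was above. WT tumor C stood apart at 0.960, with 112 Ighv counts beside 11668 constant counts, of which Igha made up 90.3%. In the other 10 tumors Igha made up 5.36% to 53.0%. Per constant count, the log2 difference between the groups in Ighv was 1.20, against 3.75 per library total, and it was 0.52 with WT tumor C left out. Reads of a variable segment that could not be aligned would not appear in these counts, and whether WT tumor C held such reads was not tested. As counts of the kappa light chain variable (Igkv) segments, WT tumor C held 317 and the other WT tumors 407 to 1611, next to 1700 to 24831 in KO tumors.

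**Figure D5:**
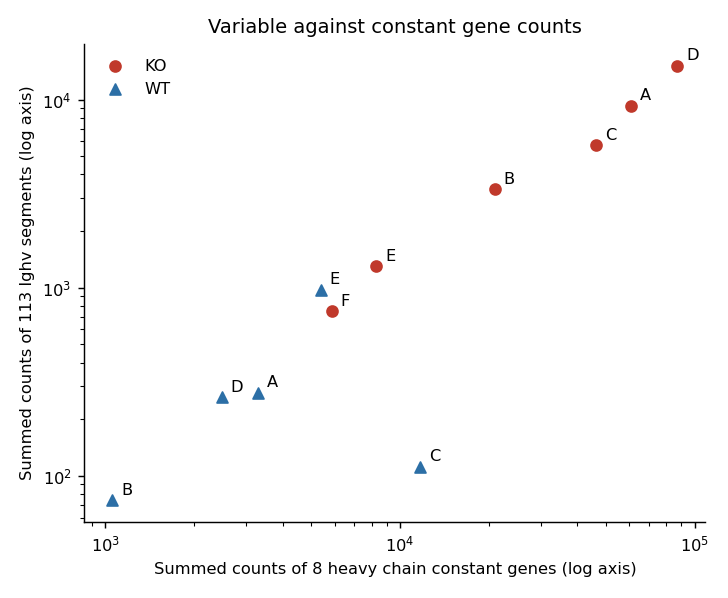
Summed counts of the 113 Ighv segments against summed counts of the 8 heavy chain constant genes for each tumor (both log axes), red circles for KO and blue triangles for WT with replicate letters. WT tumor C lies off the trend of the other 10 tumors, with 112 Ighv counts at 11668 constant counts. KO tumor F and WT tumor E lie side by side.

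Markers of B lineage cells were compared between the groups, and their relation to the Ighv level across tumors was not tested. Summed B cell markers were at 63.0 to 153 CPM in KO and 16.2 to 59.5 CPM in WT tumors. KO tumors A, C and D were highest in both sums, while KO tumor F, lowest of the KO tumors in Ighv, was at 105 CPM. All 10 B cell markers were higher in KO tumors at an unadjusted p under 0.05 by edgeR and by DESeq2 at an adjusted p under 0.05, with a median log2 fold change of 2.21, and 0 passed the edgeR adjusted threshold (adjusted p 0.0663 to 0.138). Cd79a, part of the B cell receptor, was at 21.4 ± 9.04 CPM in KO (SD, n = 6) and 3.42 ± 2.63 CPM in WT tumors (SD, n = 5). Of 9 plasma cell markers tested, 5 were higher and 1 was lower at an unadjusted p under 0.05, and DESeq2 called 2 higher. Mzb1, a chaperone of antibody-secreting cells, had a log2 fold change of 2.28 ± 0.719 (SE) with an edgeR adjusted p of 0.107. The lower gene was Fkbp11, at -0.78 ± 0.286 (SE) with an edgeR adjusted p of 0.132. Xbp1, Sdc1 and Prdm1 were at -0.28, 0.35 and 0.38. Summed plasma cell markers overlapped, at 721 to 1153 CPM in KO and 701 to 976 CPM in WT tumors. Sdc1, at means of 570 CPM in KO and 447 CPM in WT tumors, and Xbp1, at 219 and 265 CPM, weighed most in this sum. For every gene list here, the shares over all genes tested were 8.57% higher at an unadjusted p under 0.05 and 3.42% called higher by DESeq2. Of 9 T cell markers, 0 passed an unadjusted p under 0.05 by edgeR and 0 were called by DESeq2, with summed levels of 85.3 to 481 CPM in KO and 208 to 533 CPM in WT tumors. The part of cell numbers in the Ighv differences was not tested.

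Markers of other tissues that a tumor piece can hold gave the following values. Summed lymph node stroma markers (6 found in the table) were at 14.8 to 107 CPM in KO and 32.0 to 127 CPM in WT tumors. Of the 5 tested, 0 were called at an edgeR adjusted p under 0.05, and 1 was higher at an unadjusted p under 0.05 and by DESeq2. This was Cxcl13, a chemokine that draws B cells, with a log2 fold change of 2.00 ± 0.488 (SE), while Ccl21a and Madcam1 had negative values of -1.68 and -0.48. Acinar markers summed to 6.21 to 273 CPM in KO and 12.3 to 975 CPM in WT tumors. Carcinoma epithelium markers summed to 2485 to 5039 CPM in KO and 3082 to 8086 CPM in WT tumors, and fibroblast markers to 4271 to 9118 CPM and 2278 to 9153 CPM. By edgeR, 3 of 6 carcinoma markers (Krt18, Krt19 and Epcam) were lower in KO tumors at an unadjusted p under 0.05. DESeq2 called 0 of these 6. Of 2 acinar markers tested, 1 (Cela1, log2 fold change -1.96) was lower at that threshold and by DESeq2. Of 6 fibroblast markers, 0 passed by either test. The part of these tissues in the Ighv result was not tested.

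The genes that assemble and diversify heavy chains went in both directions. Of 18 such genes 11 were tested, 0 were called at an edgeR adjusted p under 0.05, 2 were higher and 2 lower at an unadjusted p under 0.05, and DESeq2 called 2 higher and 1 lower. Rag1 and Rag2, which cut the segments for joining, had 4 and 2 counts in all tumors together. Bcl6, a regulator of germinal center B cells also expressed elsewhere, had a log2 fold change of 0.56 ± 0.168 (SE) with an edgeR adjusted p of 0.0997. Vpreb3 was also higher, at 1.76 ± 0.604 (SE). The lower genes were Vpreb1, at -1.68 ± 0.486 (SE), and Xrcc4, at -0.51 ± 0.186 (SE). Vpreb1 was lower in every KO tumor (0.140 to 0.406 CPM) than in any WT tumor (0.473 to 2.59 CPM), on 4 to 31 counts per tumor. Its edgeR adjusted p was 0.0976.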

How the data were processed

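RNA from a piece of each of 11 tumors (6 KO, 5 WT) was sequenced as strand-specific, paired-end libraries. Per the labels and the study's methods, the authors demultiplexed reads with bcl2fastq 2.19, trimmed them with Trimmomatic, aligned them to mm10 (GRCm38) with HISAT2 2.1.0 and counted them per gene with HTSeq 0.11.2. Keeping uniquely aligned reads affects variable segments that are near copies of one another. The deposited raw counts per gene were used for all results. The deposited normalised values (unit signal) equalled the raw count divided by 1 factor per sample and served as an alternative for the sum. DESeq2 and edgeR are also named in the processing notes of the submitters.

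Gene identifiers (54232, of which 54165 matched) took symbols, types and GRCm38 positions from GENCODE M21, as did the reference sequences. Groups came from the sample titles. Differential expression was tested with edgeR 4.0.16 (R 4.3.3; quasi-likelihood F-test, TMM, filterByExpr, no covariate) on all genes, with Benjamini-Hochberg adjustment over 16536 genes, a threshold of 0.05 and intervals of 95%. DESeq2 1.42.0 was an alternative on the same genes. CPM used TMM-scaled totals. Identity was the edit distance between annotated transcripts (edlib 1.3.9.post1). Expected breadth at equal counts was computed from the hypergeometric distribution. The edgeR script was tested on simulated data.

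The members and gene lists were chosen with earlier results of these data known. The segments named were those with an adjusted p under 0.05, the 5 with the smallest p in each direction, the 10 with the highest mean CPM and the leader of each tumor. None of the 29 segments tested had a negative fold change. The 70 Ighv pseudogenes and 2 genes of type IG_LV_gene were left out by the rule on gene type. The labels do not say whether tumors shared a litter or a processing day. Alternatives were other normalisations and filters, each tumor left out in turn, a replicate block, the ribosomal share as covariate, and other measures of breadth and dominance.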

Additional observations from a re-analysis of the deposited data

Results flagged for a closer look

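In 46 groups of values (the sums, breadth and dominance measures and the 18 named segments, within KO or within WT tumors), 17 values stood farther from the rest of their group than Dixon's 95% limit allows. Chance would flag about 1 in 20 groups, or 2.3 here, if the groups had been chosen without regard to their values. The named segments were chosen partly because they led a tumor or had a high mean level. For these, a tumor that stands apart was partly built in by the choice, so 17 cannot be weighed against 2.3. Values with many zeros and a long upper tail are also flagged more readily. The summed level of WT tumor E, 28.8 CPM, lay above the 5.504 to 12.02 CPM of the other WT tumors.

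KO tumor D stood apart for 6 segments, at 58.98 CPM for Ighv10-3, 57.2 for Ighv8-8, 41.0 for Ighv7-4, 38.5 for Ighv1-12, 27.2 for Ighv1-39 and 18.3 for Ighv9-3. The next KO tumors were at 6.62, 6.40, 0.282, 2.23, 4.99 and 4.80 CPM. KO tumor C stood apart for Ighv1-75 at 53.0 CPM and KO tumor A for Ighv2-9 at 0.525 CPM.

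Among WT tumors, E stood apart for Ighv9-3 (10.7 CPM) and Ighv1-75 (0.384 CPM), A for Ighv1-76 (2.60 CPM) and Ighv6-3 (0.304 CPM), B for Ighv8-8 (1.25 CPM), C for Ighv2-9 (0.737 CPM) and Ighv1-12 (0.0983 CPM), and D for Ighv1-26 (2.31 CPM). Several of these rest on few counts, 2 for Ighv1-12 in WT tumor C.

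The 70 annotated Ighv pseudogenes, which are outside the comparisons above, held 1 to 9 counts in KO tumors and at most 1 in WT tumors, 34 counts in all. The highest value, 9, was in KO tumor A, which held 9264 counts of the functional segments.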

How the results depend on the processing

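Counts of segments called higher in KO tumors depended on the test. The edgeR count of 0 of 29 became 22 with DESeq2, 6 of 98 without the filter on low counts, and 27 and, without the filter, 73 at an unadjusted p under 0.05 (the last chosen after seeing the data). Leaving out each tumor in turn gave 0 to 22. With the replicate letter as a block it was 2 of 29 (Ighv11-2 and Ighv1-11), against 0.0484% of all genes tested in that fit. The labels do not say that the letters pair the samples. The tumors came from different animals, and the deviations of same-lettered tumors correlated at -0.135 to 0.118. The edgeR count stayed at 0 with RLE normalization and with the ribosomal share as covariate. Asking for at least 10 counts in every tumor left no segment to test. No setting called a segment lower. The log2 difference in the sum kept its direction and moved by less than 1 SD in all alternatives but those per constant gene count: it was 3.32 to 4.19 with each tumor left out and 1.20 per constant gene count, or 0.52 with WT tumor C also left out, alternatives added after seeing the data. The difference in segments detected (48.5) was 45.2 to 54.0 with each tumor left out and 4.40 at equal Ighv counts with a limit of 1 count, which at full counts gave 41.7. The differences in leading share (-3.63) and effective number (4.04) moved by less than 1 SD from these values under every alternative run, to -0.11 for the share without WT tumor E and 9.17 for the effective number by Shannon entropy. For the named segments, 165 of 205 alternative values stayed on their side of the threshold, 40 passed it and 0 changed direction. WT tumors held 74 to 976 Ighv counts each, so shares within them are the least precise.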
